A study of Caenorhabditis elegans with 2 samples.

Results

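The borderline regions are 506 places in the Caenorhabditis elegans genome where CEH-88 ChIP-seq gave a signal that ranked just below the reproducibility threshold of the study. They were selected on the deposited score of the whole-series ranked list built from the replicates, which follows the irreproducible discovery rate (IDR), the estimated share of irreproducible regions at a given rank. Members scored from 540, an IDR of 0.05, up to but not including 830, an IDR of 0.01 at which the study's thresholded lists begin. The band held 633 of the 122189 ranked regions. Of these, 127 touched a peak of a whole-series thresholded list (7 a peak of the conservative list and 123 a peak of the other list) and were left out. The remaining 506 make up 0.414% of the ranked list.

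The animals were whole L1 larvae of strain OP593, of age 6 h, starved after bleaching. They carried the transgene wgIs593, in which ceh-88 is joined to TY1, EGFP and 3xFLAG tags, with a wild-type copy of unc-119 on the unc-119(tm4063) background. Chromatin, sonicated to between 200 and 800 bp, was recovered with an antibody against GFP in 2 biological replicates, which form the only group. The control experiment named in the labels was not used here, so DNA recovered without the tagged protein and DNA bound by it cannot be told apart. In whole larvae, a site bound in few cells and a site bound weakly in many cannot be told apart either. Read depth was not given, and the depth behind each value is unknown.

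CEH-88 belongs to the homeodomain proteins, transcription factors that bind DNA through a helix-turn-helix domain and often contact short AT-rich words. ChIP-seq recovers the DNA bound to a tagged factor, and the caller ranks every enriched region by strength. A region passes the IDR step when it ranks high in each replicate, so a band under the threshold collects regions that are weaker in both, or strong in one and weak in the other. In worms, strong ChIP-seq regions of many factors lie at promoters of widely expressed genes and at genes for small structural RNAs.

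The DNA under the strongest borderline summits is shown first, since these had the highest signals of the set. The 5 windows reach 50 bp to each side of the summit of the strongest regions, printed 5′ to 3′ on the plus strand from the RefSeq copy of WBcel235 (ce11), and are named by the gene with the nearest start. They lie at chrIV:14071077-14071177 (ccar-1), chrX:10555678-10555778 (syd-2), chrIII:7336296-7336396 (gsp-2), chrII:13030984-13031084 (F18A11.2) and chrV:17822433-17822533 (srh-300). Another strong region, nearest to C26C6.9, is not printed. Capitals mark the word GCGCG on either strand, which occurs in the syd-2 window alone among these 5.
ccar-1: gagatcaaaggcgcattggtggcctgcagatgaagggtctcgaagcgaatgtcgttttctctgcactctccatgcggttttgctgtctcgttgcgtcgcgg
syd-2: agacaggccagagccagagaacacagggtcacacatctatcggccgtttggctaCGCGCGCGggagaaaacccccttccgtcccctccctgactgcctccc
gsp-2: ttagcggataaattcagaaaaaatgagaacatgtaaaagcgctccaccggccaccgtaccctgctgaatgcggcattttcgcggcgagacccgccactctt
F18A11.2: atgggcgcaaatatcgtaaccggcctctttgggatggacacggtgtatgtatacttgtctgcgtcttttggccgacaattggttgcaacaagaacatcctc
srh-300: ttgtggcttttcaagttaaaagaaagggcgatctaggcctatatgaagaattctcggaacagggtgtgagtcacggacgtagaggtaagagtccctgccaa

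The tRNA genes beside the 2 strongest such summits are shown because tRNA genes were the class of small RNA gene nearest to borderline summits most often. C16D9.t4 encodes a tyrosine tRNA at chrV:8247481-8247564 and K11E4.t2 a lysine tRNA at chrX:13716493-13716565, both on the plus strand. Capitals mark GTTCGA, the core of the B box, the internal promoter word through which RNA polymerase III is recruited to tRNA genes. C16D9.t4 holds these letters and K11E4.t2 does not.
C16D9.t4: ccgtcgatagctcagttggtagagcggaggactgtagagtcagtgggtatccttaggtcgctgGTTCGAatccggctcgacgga
K11E4.t2: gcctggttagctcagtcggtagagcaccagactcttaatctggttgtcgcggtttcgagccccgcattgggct

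The strongest borderline region lay at IV 14070929 to 14071324, 421 bp upstream of ccar-1 (WBGene00003085), a homolog of the human cell cycle and apoptosis regulator CCAR1. Its signal, a measure of peak strength in units of the caller, was 88.97 in the whole-series list. In the replicates' own lists it was 64.2 in replicate 1 and 24.9 in replicate 2. The region was thus strong in replicate 1 and near the weakest of the members in replicate 2.

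The same imbalance recurred down the list. The region 489 bp upstream of syd-2 (WBGene00006364), which encodes the presynaptic scaffold liprin-alpha, had a signal of 83.9, with 53.0 and 26.0 in replicates 1 and 2, and its summit lay in an exon of a noncoding RNA gene. The region 241 bp upstream of gsp-2 (WBGene00001748), a catalytic subunit of protein phosphatase 1, had 82.1, with 66.6 and 25.2. Replicate 1 was the higher in each of these. C26C6.9, with a summit 3352 bp upstream of the nearest start, had 81.6, and F18A11.2 had 80.5 (56.4 and 24.3). The summit nearest srh-300, a gene of the chemosensory receptor family, lay in an intron 378 bp past the start and had 79.8 (51.6 and 26.4).

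Replicate 2 was the higher in other strong members. The region 974 bp upstream of nhr-11 (WBGene00003610), a nuclear hormone receptor gene, had a signal of 76.5, with 29.1 in replicate 1 and 38.3 in replicate 2. F53C11.5 had 76.1 (29.97 and 38.7). The region over the start of adh-1 (WBGene00010790), an alcohol dehydrogenase gene, had 75.6, with 29.1 and 43.9, and its summit lay 21 bp past the start in the 5′ UTR. It alone among the 506 touched a peak in the thresholded list of each replicate, although no whole-series peak lay there.

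The other 6 of the 15 strongest regions had signals between 74.9 and 79.7. F32D8.5 (79.7) had a summit in the 5′ UTR and within the promoter windows of genes on both strands. C16D9.5 (75.7) had a summit 191 bp from the tyrosine tRNA gene shown above, and shc-3 (74.9) had one inside the lysine tRNA gene. The summit 266 bp upstream of gcn-1, whose yeast homolog activates the translational control kinase GCN2, had 75.5. The summit 254 bp upstream of rad-54.L, a homolog of the recombination repair translocase Rad54, had 75.3, and the intronic summit at C30G4.4 had 75.1.

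Members were chosen on the ranks in the replicates, so their signals are a description and carry no test. In the whole-series list the lowest signal was 2.01, the median 57.2 and the highest 88.97, with quartiles of 48.4 and 62.3. The 1171 conservative peaks had a median of 115.1 and the 119785 lower-ranked regions, which score below the band and touch no thresholded peak of either replicate or of the whole series, had a median of 16.97. The highest lower-ranked region reached 82.4, so the groups overlapped in signal. Score and signal did not give the same order among the members. The region with the highest score, 827, lay in an intron nearest to C34B4.2 and had a signal of 11.0.

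Of the members, 479 overlapped a region in the ranked list of both replicates, 14 had none in replicate 1 and 13 had none in replicate 2. In replicate 1 the lowest signal was 25.2, the median 31.1 and the highest 66.6 (n = 492 regions). In replicate 2 these values were 24.2, 29.1 and 52.1 (n = 493). The conservative peaks had medians of 69.7 and 53.3. Replicate 1 was the higher in 288 of the 479 members (60.1%) and in 885 of 1152 conservative peaks (76.8%). No scale is stated between the replicates' lists, so higher refers only to the deposited values as they stand. The median log2 ratio of replicate 1 to replicate 2 was 0.09 (SD 0.38 over members) against 0.36 (SD 0.50) at conservative peaks.

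Most members fell below a mark of 30 in signal in exactly 1 replicate. This mark lies between the members' medians of 31.1 in replicate 1 and 29.1 in replicate 2. Values just above and just below it are split by it, so the counts do not separate strong from weak. A signal below 30 occurred in both replicates at 56 of the 479 members and in exactly 1 replicate at 362. A signal of 45 or more occurred at 25 members in replicate 1 and at 3 in replicate 2. The median rank of the members was 3013 of 85787 regions in replicate 1 (range 660 to 6476) and 2775 of 98792 in replicate 2 (range 604 to 6196). In the plot of signal by replicate the members form a bent band along the lower left edge of the conservative peaks, with 1 arm of high replicate 1 and low replicate 2 signal and a shorter arm of the reverse. This shape follows from the choice of members by rank in both replicates.

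**Figure D1:**
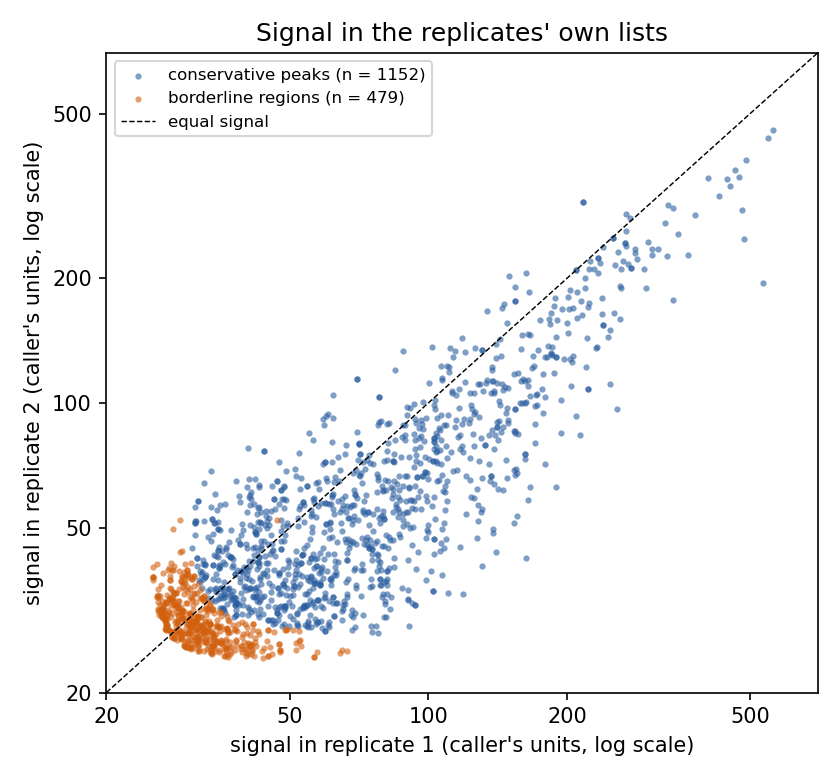
Signal of each region in the replicates' own ranked lists, replicate 1 on the horizontal and replicate 2 on the vertical axis, both in the caller's units on log scales. Each point is 1 borderline region (n = 479) or conservative peak (n = 1152) and the dashed line marks equal signal. The borderline regions lie between 25.2 and 66.6 in replicate 1 and between 24.2 and 52.1 in replicate 2.

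Most members, 486 of the 506, touched no peak of any thresholded list, which for the whole-series lists is fixed by the rule. A peak in a replicate's own thresholded list was touched by 20 of the 506, of which 17 touched a replicate 1 peak, 4 a replicate 2 peak and 1 both. These lists held 1128 peaks in replicate 1 and 698 in replicate 2. The share of all ranked regions that touch them is not given here, so the counts are not a result about the members. The 3 members other than adh-1 with a replicate 2 peak were nearest to tps-2, a trehalose 6-phosphate synthase gene, to mak-1, a MAPKAP kinase gene, and to C34B4.2, and are named here after their values were seen. The median gap from a member to the nearest whole-series peak was 22031.5 bp, and 21 members lay within 500 bp of one. Members that overlapped such a peak were left out by the rule, and gaps of other regions were not measured for comparison. In the other ranked list of the whole series 502 of the 506 had a region, of which 204 scored in the same band, 294 below it and 4 above it, with a median score of 442.

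All 506 members were 396 bp wide, and 130 of them overlapped another member. Thinning to the strongest within 500 bp left 441. A signal under 20 was found in 56 members, and 49 of these overlapped another member. An example was the start of F01G10.10, where regions of score 826 and 825 with signals of 6.94 and 63.0 took the same replicate values (31.1 and 38.1). Neighbouring members are therefore not independent observations.

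At the upper edge of the band lay C34B4.2 (score 827, signal 11.0), F01G10.10 (826, signal 6.94) and F44E7.4 (825, signal 66.7). The regions just above the threshold were nearest to glb-25 (830, signal 62.8), rack-1 (830, signal 70.9) and daf-2 (831, signal 68.0). At the lower edge lay F44E2.6, ins-30 and R02F2.1, all with a score of 540 and with signals of 49.7, 50.7 and 56.5. Just below it lay C09E9.1, Y41C4A.11 and mnk-1, with a score of 539 and signals of 60.6, 49.1 and 19.9. Signals on the inner and outer side of each edge overlapped. Others among the 10 highest scores were C28H8.2 (824), Y52B11A.19 (823 and 822), mapk-15 (823), an atypical MAP kinase gene, Y52B11A.4 (821) and C06A6.7 (820).

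Borderline summits lay at promoters less often than called peaks and more often than the lower-ranked regions. A promoter window covers the 1000 bp before and the 200 bp after a protein-coding transcript start. Such windows held 198 of the 506 summits (39.1%, exact 95% interval 34.9 to 43.5) and 710 of the 1171 conservative summits (60.6%, interval 57.8 to 63.4), an odds ratio of 0.417 (Fisher's exact test, two-sided, adjusted p = 3.27e-15). Among lower-ranked regions they held 24.9%, and the odds ratio was 1.94 (Fisher's exact adjusted p = 6.96e-12). P-values were adjusted by the Benjamini-Hochberg method over 12 tests, 6 features in 2 contrasts, and describe regions of 1 list, not the spread between animals. Intervals here cover the counting of regions only.

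The position of the members between the other groups was also seen along the score. The promoter share was 24.7% at scores of 0 to 99 and 32.6% at 400 to 539. Within the band it was 39.7% at 540 to 629 (n = 209), 37.4% at 630 to 729 (n = 174) and 40.7% from 730 up to the threshold (n = 123), and the intervals of these steps overlapped widely. Above the threshold it was 45.6% at 830 to 929, 49.5% at 930 to 999 and 64.2% at the top score of 1000, which 925 conservative peaks shared. Against the conservative peaks below the top score alone, 47.2% at promoters, the odds ratio of the members was 0.72 and Fisher's exact test did not pass (adjusted p = 0.081), an alternative chosen after seeing the data. In the plot of shares by score, the intervals of the steps on either side of the threshold overlap.

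**Figure D2:**
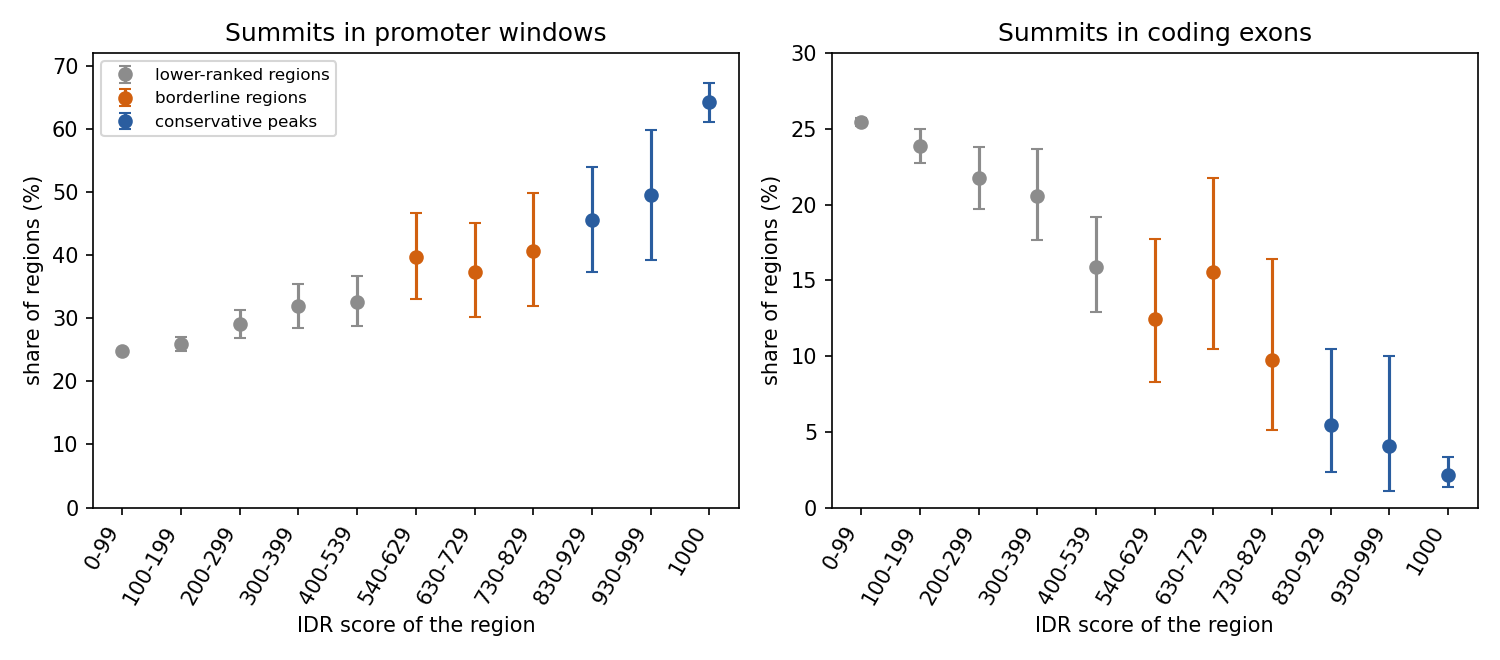
Share of summits in promoter windows (left) and in coding exons (right), in percent, by the deposited IDR score of the region. Points are shares of all regions in a step of score and bars are exact 95% intervals; lower-ranked regions are grey, borderline regions orange and conservative peaks blue. Promoter shares run from 24.7% to 64.2% and coding exon shares from 25.4% to 2.16% from the lowest to the highest step.

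Coding sequence showed the reverse order. The summit lay in a coding exon in 65 of the 506 members (12.8%, interval 10.1 to 16.1), in 32 conservative peaks (2.73%, interval 1.88 to 3.84) and in 25.2% of lower-ranked regions. The odds ratio was 5.25 against the conservative peaks (Fisher's exact adjusted p = 8.94e-14) and 0.437 against the lower-ranked regions (Fisher's exact adjusted p = 2.02e-11). Against conservative peaks below the top score the odds ratio was 2.87 (Fisher's exact adjusted p = 0.00118). The share was 12.4%, 15.5% and 9.76% in the steps from the lowest to the highest score of the band. Just below the band, at scores of 400 to 539, it was 15.8% (interval 12.9 to 19.2), which overlaps the intervals within the band. It was 25.4% at 0 to 99, where most lower-ranked regions lie, and 5.44% and 4.04% at 830 to 929 and 930 to 999.

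The 5 strongest members in coding exons, picked after their values were seen, had signals of 66.7 to 70.4. The nearest starts were those of snf-9 (70.4, with 28.5 and 31.3 in replicates 1 and 2), maf-1 (68.9, with 25.3 and 40.3), K03B4.2 (67.2, with 38.4 and 28.1), hif-1 (67.0, with 42.7 and 28.1) and unc-62 (66.7, with 32.9 and 29.6). HIF-1 is the transcription factor of the hypoxia response and UNC-62 is a homeodomain protein of the Meis class. The hif-1 and unc-62 summits lay 2257 bp and 2709 bp past the start. The median signal of the 65 was 56.5, against 58.1 for members at promoters and 57.2 for all members.

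By annotation, 44.3% of members were intergenic, 30.2% intronic, 12.8% in coding exons, 6.32% in exons of noncoding genes, 3.95% in 3′ UTRs and 2.37% in 5′ UTRs. Of conservative summits, 62.8% were intergenic and 18.4% intronic, and of lower-ranked summits 33.2% and 33.2%. These shares were not tested.

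Members gathered upstream of starts, though less sharply than called peaks. The median distance from summit to nearest protein-coding start was 1017 bp for members, 432 bp for conservative peaks and 1328 bp for lower-ranked regions. The summit lay within 300 bp upstream of the start in 17.4% of members (interval 14.2 to 21.0), 37.0% of conservative peaks and 6.83% of lower-ranked regions. It lay over 2000 bp away in 33.0%, 19.98% and 35.3%. Of the members at promoters, 35 of 198 (17.7%, interval 12.6 to 23.7) lay in windows of genes on both strands, as at F32D8.5 and rad-54.L, against 34.6% of conservative and 7.08% of lower-ranked promoter summits. These distances were described without a test. In the plot of summit position the members peak in the 200 bp before the start, at 11.5% of regions, where the conservative peaks reach 25.1% and the lower-ranked regions 4.66%.

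**Figure D3:**
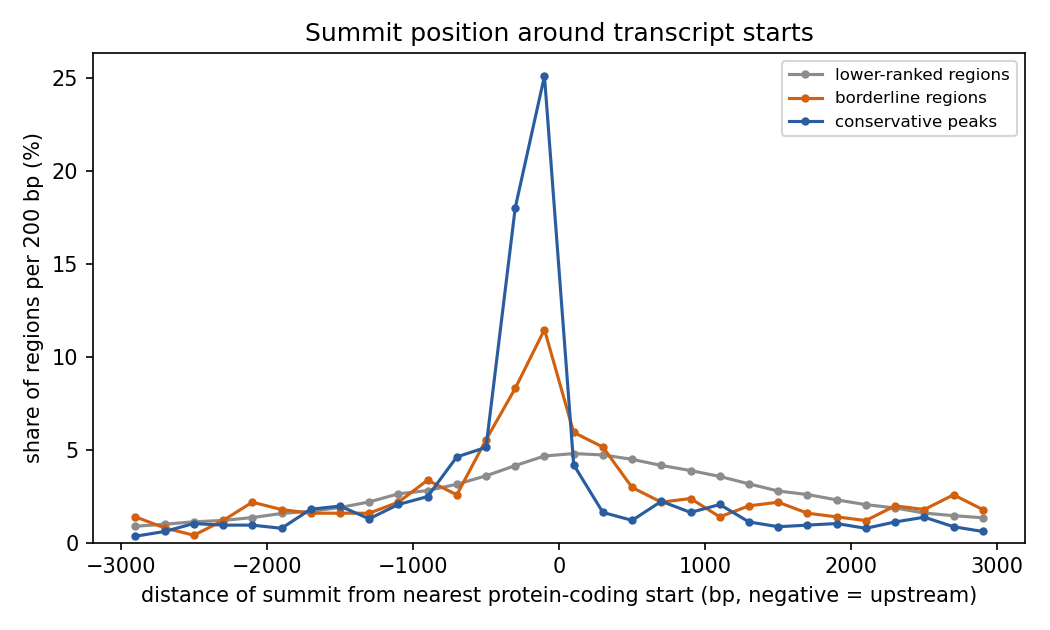
Share of regions (in percent, per 200 bp) by the distance of the summit from the nearest protein-coding start, with negative values upstream. Lines join the shares of borderline regions (n = 506), conservative peaks (n = 1171) and lower-ranked regions (n = 119785). The borderline line peaks at 11.5% just upstream of the start, between 25.1% and 4.66%.

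Base composition at the members was closer to that of the lower-ranked regions than to that of the called peaks as a whole. The median G and C content within 50 bp to either side of the summit was 39.1% in members (quartiles 31.7 and 45.5), 47.5% in conservative peaks and 35.6% in lower-ranked regions. Within promoter windows it was 39.6%, 47.5% and 35.6%. Conservative peaks at scores of 830 to 929 and of 930 to 999 had lower medians than all conservative peaks, 42.6% and 43.6%. Members in coding exons had a median of 44.6% and those near tRNA genes 46.5%. Base composition moves with score, promoter share and the words counted next, and its part in any of them was not tested.

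**Figure D4:**
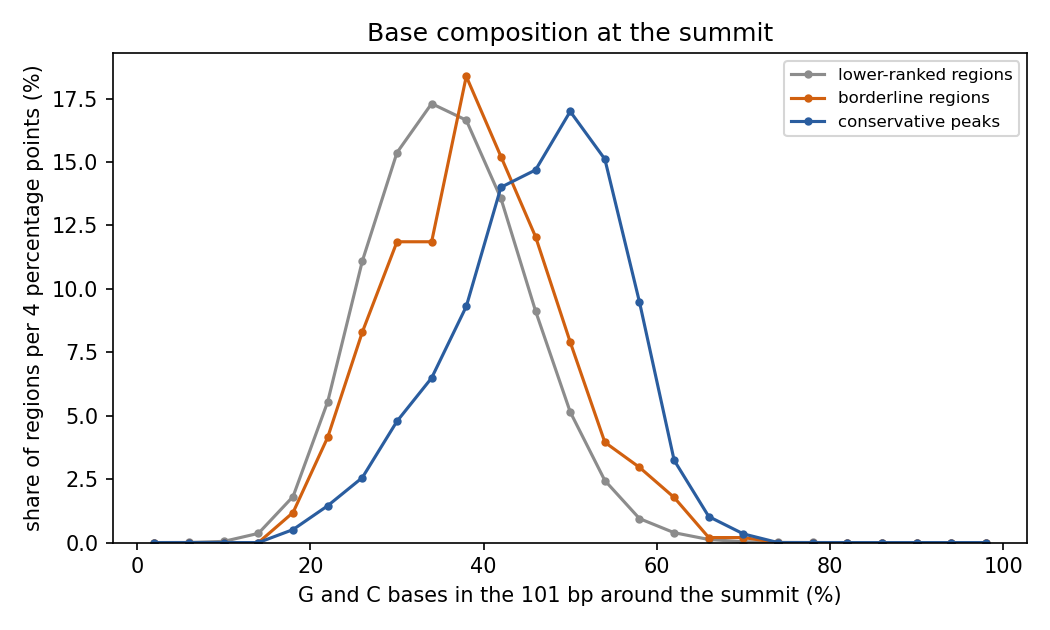
Distribution of G and C content within 50 bp to either side of the summit, as the share of regions per 4 percentage points, for borderline regions, conservative peaks and lower-ranked regions. Medians are 39.1%, 47.5% and 35.6%, so the borderline line lies nearer to the lower-ranked line.

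In these windows 9 words were counted on either strand, some of which can share bases, as the words ATTGAT and also TGATAA can. The word GCGCG occurred in 44 of 506 member windows (8.70%, interval 6.39 to 11.5), 29.3% of conservative windows and 3.84% of lower-ranked windows. At promoters the shares were 12.1%, 35.9% and 4.48%. GAGAGA occurred in 8.10%, 19.6% and 5.03%, and CACGTG, the E-box word, in 2.37%, 6.06% and 1.84%. For all of these the members had a share between the other groups and nearer to the lower-ranked regions.

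The homeodomain word TAATTA occurred in 4.15% of member windows (interval 2.59 to 6.27), 2.56% of conservative windows and 4.48% of lower-ranked windows. ATTGAT occurred in 9.09%, 5.38% and 9.84%, and ATCGAT in 3.95%, 3.67% and 3.12%. TGATAA, which holds the core word of GATA factors, occurred in 7.31%, 4.70% and 8.85%, and TGACGT in 3.95%, 4.95% and 3.31%. GTTCGA, the word shown in the tRNA gene, occurred in 4.94%, 5.81% and 3.64%. For the words TAATTA and ATTGAT, and likewise for TGATAA, the members lay close to the lower-ranked regions, which are richer in A and T. A match is a description of letters and not a binding site.

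Genes for tRNAs lay near borderline summits more often than near lower-ranked ones. A summit lay within 250 bp of a tRNA gene in 22 of 506 members (4.35%, interval 2.74 to 6.51), 60 of 1171 conservative peaks (5.12%, interval 3.93 to 6.55) and 0.365% of lower-ranked regions. Against the lower-ranked regions the odds ratio was 12.4 (Fisher's exact adjusted p = 1.45e-15). It was 25.8 with members from 700 and 6.50 with members below 700, and both passed. Against the conservative peaks it was 0.842 and did not pass (Fisher's exact adjusted p = 0.54), which does not show that the shares are equal. Along the band the share was 2.39% at scores of 540 to 629, 3.45% at 630 to 729 and 8.94% from 730 up to the threshold. Just below the band, at scores of 400 to 539, it was 2.37% (interval 1.27 to 4.02), close to that of the lowest step of the band. Most lower-ranked regions (111260 of 119785) scored 0 to 99, where it was 0.319%, so the contrast with that group does not set the members apart from regions just below them. With members of scores below 700 only, the share was lower than in the conservative peaks (odds ratio 0.441, Fisher's exact adjusted p = 0.0348), and with members from 700 the odds ratio was 1.75 (adjusted p = 0.165).

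These members lay near 22 of the 612 annotated tRNA genes (3.59%), and conservative summits lay near 67 (10.9%). The summit lay inside the gene in 8 of 23 pairs of member and gene, with a median distance of 22 bp. The strongest were the tyrosine tRNA gene C16D9.t4 (signal 75.7, with 35.4 and 30.6 in replicates 1 and 2), the lysine gene K11E4.t2 (74.9, with 42.8 and 27.8), the serine gene C48C5.t2 (74.5, with 41.01 and 27.6) and the methionine gene E01H11.t1 (73.3, with 27.9 and 39.6). Replicate 1 was the higher at the first 3 and replicate 2 at the last. The first summit lay 191 bp from C16D9.t4, well above the median distance, and nearer to the snoRNA gene C16D9.10 (133 bp). The median signal of the 22 was 62.4, with a lowest value of 5.17.

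The tRNA genes covered 16 amino acids, with 3 genes each for arginine and leucine, 2 each for glycine and methionine and 1 for each of the others. Of the 22 members, 10 lay on X (45.5%), where 276 of the 612 annotated tRNA genes lie (45.1%), against 37 of 60 conservative peaks near tRNA genes (61.7%). The letters GTTCGA, printed above in C16D9.t4, occurred in 14 of the 22 genes and in 442 of all 612 (72.2%).

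Small nucleolar RNA (snoRNA) genes, whose products guide chemical modification of ribosomal RNA, were near 10 members (1.98%, interval 0.952 to 3.60), 55 conservative peaks (4.70%, interval 3.56 to 6.07) and 0.203% of lower-ranked regions. The odds ratio was 9.92 against the lower-ranked regions (Fisher's exact adjusted p = 3.16e-07). Against the conservative peaks it was 0.409 (Fisher's exact adjusted p = 0.0124), a call that did not pass in either replicate's own list (odds ratios 0.315 and 0.491) with members from 700 (0.646), within 500 bp of the gene (0.556) or against conservative peaks below the top score (0.476). The contrast with lower-ranked regions did not pass in replicate 2's own list (odds ratio 6.11, Fisher's exact adjusted p = 0.076). The strongest were C16D9.10 (75.7), in the region that also lies near the tyrosine tRNA gene, F47G4.9 (69.4), F58D5.12 (67.9) and F32B5.17 (66.4). The 10 pairs involved 9 of the 346 annotated snoRNA genes.

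Small nuclear RNA (snRNA) genes, which include the spliceosomal and spliced leader RNAs, were near 1 member (0.198%, interval 0.005 to 1.10) and 20 conservative peaks (1.71%). The odds ratio was 0.114 (Fisher's exact adjusted p = 0.0124), which rests on a single member and did not pass in either replicate's own list, with members from 700 (0.357) or against conservative peaks below the top score (0.485). That member, with a signal of 56.1 and 32.4 and 28.8 in the replicates, lay 226 bp from the spliced leader gene WBGene00077486, which Ensembl names sls-1.10 and RefSeq sls-1.9. Against the lower-ranked regions (0.0743%) the odds ratio was 2.66 (Fisher's exact adjusted p = 0.345). The plot of small RNA classes shows the members near the conservative peaks for tRNA genes and below them for the other classes.

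**Figure D5:**
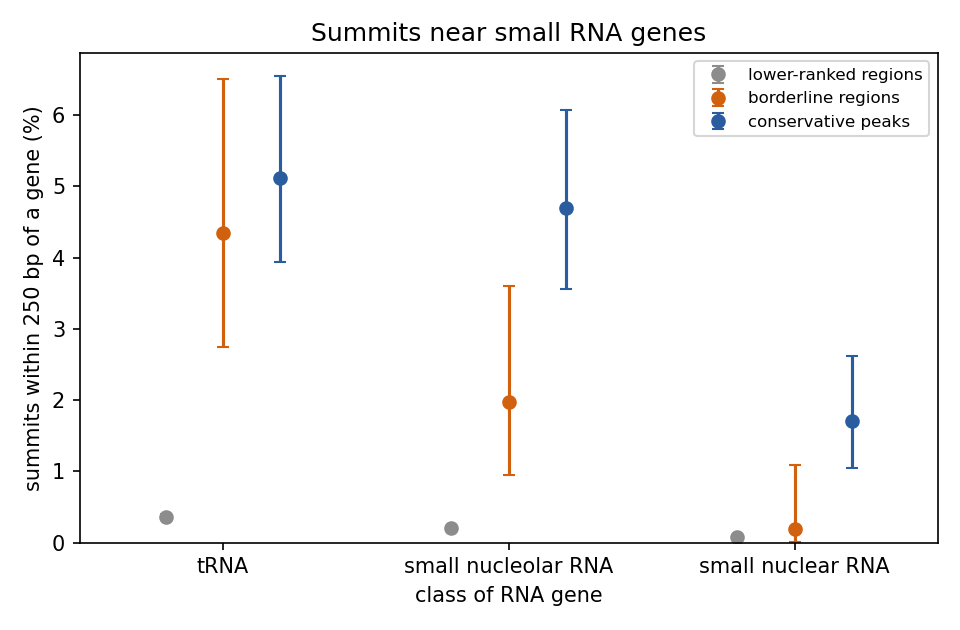
Share of summits (in percent) within 250 bp of an annotated tRNA, small nucleolar RNA or small nuclear RNA gene, for lower-ranked regions, borderline regions and conservative peaks. Points are shares and bars exact 95% intervals. For tRNA genes the borderline share is 4.35% and the conservative share 5.12%.

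The wider annotated class of noncoding RNA genes had a summit within 250 bp for 9.88% of members, 17.6% of conservative peaks and 4.23% of lower-ranked regions. MicroRNA genes were near 4 members. Genes of piRNAs were near 0.791% of members, 1.02% of conservative peaks and 3.49% of lower-ranked regions, and pseudogenes near 2.37%, 1.62% and 4.32%. None of these classes was tested.

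Of the 19973 protein-coding genes, 212 (1.06%) had a borderline summit in their promoter window and 944 (4.73%) a conservative one. Both kinds of summit were found at 8 genes, which make up 3.77% of the borderline genes and 0.847% of the conservative ones. The rule left out band regions that overlapped a whole-series peak. The first share therefore cannot be compared with the 4.73% of all genes that have a conservative summit. These 8, named after their values were seen, were rab-7 and unc-108, small GTPases of the late endosome and of the Golgi, sma-9, a Schnurri homolog of the body size pathway, drap-1, nduc-2, R31.2, M01H9.3 and Y71H2AM.20. At each the conservative peak was the stronger, from 80.1 against 55.1 at sma-9 to 329 against 58.3 at rab-7. The choice of members below the threshold favours this order. The genes nduc-2 and Y71H2AM.20 had the same signals (240.6 against 53.98) and are not separate cases.

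Ribosomal protein genes, the list that called peaks reached most often, had a borderline share near the 1.06% of all genes. The rule left out band regions that overlapped a whole-series peak, which limits borderline counts at genes with a called peak. Of 81 ribosomal protein genes 1 had a borderline summit (1.23%), against 45 (55.6%) with a conservative summit. It was rpl-17 (WBGene00004429), with a signal of 41.998 and with 27.5 and 35.7 in replicates 1 and 2. Of 70 mitochondrial ribosomal protein genes 1 had one, mrpl-47, whose summit lay 14 bp upstream of the start with a signal of 65.5 and with 32.5 and 33.4 in the replicates, against 12 with a conservative summit. Against the background of 1.06% of all genes, counts of 1 gene are not a result about a list.

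Other lists of protein synthesis and turnover gave similar counts. Translation factors had 2 of 47, eef-1B.2, a nucleotide exchange factor of elongation (57.2), and eif-3.I, a subunit of initiation factor 3 (37.8), against 11 conservative. The proteasome had 1 of 33, the ATPase subunit gene rpt-2 (58.2), and chaperones 1 of 70, the AAA ATPase gene cdc-48.2 (57.1), against 3 and 21. The cdc-48.2 summit lay 969 bp upstream of the start, near the far edge of the window. Respiration (44 genes), aminoacyl-tRNA synthetases (32), histones (72) and splicing (91) had 0, against 11, 3, 5 and 19 conservative. The borderline share ranged from 0 to 4.26% over these lists, beside 1.06% of all genes, and was not tested.

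Lists of regulators and of cell division held 0 to 3 borderline genes each, and their shares were not tested against the 1.06% of all genes. RNA polymerase II machinery had 2 of 82 (2.44%), the Mediator subunit gene mdt-6 (67.6) and the TFIID subunit gene taf-12 (47.0). Both summits lay near the far edge of the window, 944 bp upstream of mdt-6, in an annotated 5′ UTR, and 883 bp upstream of taf-12. Nuclear hormone receptors had 3 of 269 (1.12%), nhr-11 (76.5), nhr-40 (59.7) and nhr-119 (40.9), against 5 conservative, and the list of 102 homeobox genes had 0. The cell cycle list had 3 of 87 (3.45%), the ribonucleotide reductase gene rnr-1 (57.2), cdc-48.2 again and the spindle checkpoint kinase gene bub-1 (50.6), against 14 conservative. The germline list had 1 of 68 (1.47%), nos-3, a Nanos homolog (51.98), and the heterochronic and dauer list 1 of 34 (2.94%), daf-4, a type II TGF-beta receptor gene of the dauer pathway (48.2).

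Among lists of effector genes, collagens had 2 of 178 (1.12%, beside 1.06% of all genes), col-185 (60.3) and col-34 (44.8). No borderline summit lay at the 1310 chemosensory receptor genes, 240 C-type lectins, 144 neuropeptide genes, 223 detoxification genes or 50 body wall muscle genes, where conservative summits were at 4, 2, 1, 1 and 1. At a share of 1.06% of all genes, few or no borderline genes are likely in a short list, and none of these shares was tested. In all, 11 of the 21 lists had a borderline target. The intronic summit at srh-300 lay outside the promoter window and is not counted.

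Neither ceh-88 nor unc-119, the genes carried by the transgene, was a target. The nearest borderline regions lay 13808 bp and 19219 bp from these genes extended by 1000 bp. Borderline regions were spread over all 6 nuclear chromosomes, with 102 on I, 76 on II, 92 on III, 77 on IV, 83 on V and 76 on X. X held 15.02% of members, 17.8% of conservative peaks (odds ratio 0.814, Fisher's exact adjusted p = 0.214) and 18.1% of lower-ranked regions (odds ratio 0.797, adjusted p = 0.0972), and neither contrast passed.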

How the data were processed

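Peak lists on assembly ce11 came from ChIP-seq of 2 biological replicates, each with an IDR ranked and an IDR thresholded list, plus 2 such pairs for the whole series, 1 of them named conservative. The deposited score follows the IDR on a log scale up to 1000, and no thresholded peak scored under 830. The signal deposited by the authors is the caller's own measure, with no scale stated between lists. The summit offset deposited by the authors was used as given. Counts of regions by score or by signal rest on these deposited values. The aligner and peak caller, like read depth, were not given in the sources used. The whole-series ranked lists hold 16 columns of per-replicate values whose names the files do not give, and these were not used.

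Gene models were those of Ensembl release 115 on WBcel235, which is ce11 under another name, and tRNA names and sequence were from RefSeq. A replicate's signal was the strongest region of its ranked list that overlapped the member. Fisher's exact tests and exact 95% (Clopper-Pearson) intervals used scipy 1.17.1 with pandas 2.3.3 and numpy 2.4.6 on Python 3.11.15. The threshold of the adjusted p was 0.05. The tests were tried on simulated independent regions with common features, which does not cover overlapping members or rare classes. Where labels do not say how the replicates were grown, they may share a culture.

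The named genes were those nearest the 15 strongest and the 10 highest-scoring members, up to 4 per list, small RNA genes at the 4 strongest members of a class, the transgene's genes and both edges of the band. The tRNA genes were printed in place of the windows around those 2 summits. The members, lists and rules were chosen with earlier results of these data known. Alternatives were the upper and the lower scores of the band, other distances, merged neighbours, the other ranked list and each replicate alone.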

Additional observations from a re-analysis of the deposited data

How the results depend on the processing

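Of 175 values recomputed under 15 alternatives, 144 kept their direction and side of the threshold or moved little. The promoter and coding exon contrasts passed under all alternatives run on them, with 1 exception. Against conservative peaks below the top score, chosen after seeing the data, the promoter odds ratio was 0.72 and did not pass (the exception), nor did those of snoRNA (0.476) and snRNA genes (0.485). With members from 700 up there were 162 regions, 65 target genes and 10 that touched a replicate's peak, and the odds ratios against conservative peaks were 1.75 for tRNA, 0.646 for snoRNA and 0.357 for snRNA genes. With scores below 700, 10 members touched a replicate's peak, and the tRNA odds ratio was 0.441 and passed. Members that touched a replicate's peak numbered 62 in the other ranked list, and 0 without members within 500 bp of any thresholded peak, which that alternative fixes by removing them. Within 500 bp the snoRNA odds ratio was 0.556. For snRNA genes against lower-ranked regions it was 0 with scores below 700, in the other list and within 100 bp.

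Taking the band from 1 replicate's own list gave 160 to 330 regions, 65 to 159 target genes, 4 to 5 that touched a thresholded peak of a replicate and a median signal of 35.8 to 38.6. The odds ratios against that replicate's own thresholded peaks ranged from 0.957 to 1.18 for tRNA, from 0.315 to 0.491 for snoRNA and from 0 to 0.199 for snRNA genes, and against lower-ranked regions from 6.11 to 8.31 for snoRNA and from 0 to 4.38 for snRNA genes. The cause of these changes was not tested. No paired analysis was possible because the samples form 1 group. Depth is unknown, rare classes rest on 1 to 22 regions, and overlapping members share reads. The use of 2 replicates of whole larvae, with the control experiment not used here, limits what the shares describe.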

Other observations

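The ranked list also held 10 regions at or above the threshold that appear in none of the thresholded lists. The strongest, at X 15810998 to 15811185, had a signal of 1118, above every conservative peak, and lay 6935 bp upstream of the nearest protein-coding start, that of Y7A5A.7. A second lay nearby at X 15807994 to 15808389 with a signal of 74.7. The others had signals of 51.9 to 207, among them rack-1, whose region scored 830 and is named above as just outside the band. Of the borderline regions, 1 touched a region of this kind and 2 lay within 500 bp of one. How these regions came to be left out of the thresholded lists was not tested.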
